A study of Homo sapiens with 18 samples.

Results

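The response of HepG2 cells to the small molecule 10CA was described from 6 RNA-seq libraries, 3 treated with 10CA at 10 µM and 3 with the vehicle DMSO at 0.1%, out of 18 libraries in the series. HepG2 is a human liver cancer line that keeps many hepatocyte functions. The other libraries, 3 per group, were treated with ethanol at 0.1%, with the small molecules 6N or 6N-10CA at 10 µM each, or with the phospholipid DLPC at 100 µM. All cells shared a medium with charcoal-stripped serum, which is depleted of small lipophilic hormones. The series belongs, from knowledge of the study, to work on LRH-1 (gene symbol NR5A2), a nuclear receptor. The labels do not say which vehicle accompanied which compound, how long treatment lasted, or whether replicates were separate cultures. DMSO was taken as the vehicle of 10CA from knowledge of the study. The spread behind each p-value was estimated over the 18 libraries of all groups, after effects of replicate number were taken out. That spread may be technical.

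Total counts of the 6 libraries ran from 30327317 to 34579945, and 14797 genes passed the filter on low counts. All 18 hepatocyte markers examined were expressed in the 6 libraries, among them the secreted proteins ALB and APOA1 and the transcription factor HNF4A. Of 19 markers of stromal, endothelial and blood cells, 10 stayed under 1 CPM (a gene's share of its library's counts, scaled to 1000000) in all 6 libraries and 3 (KDR, MS4A1 and HBB) had no count. Among those detected were LYZ (301.7 to 338.7 CPM), ACTA2, a smooth muscle actin (91.95 to 101.3 CPM), and CD68 (84.28 to 89.56 CPM). CDH5 (16.25 to 20.54 CPM), PECAM1 (12.37 to 15.21 CPM), PDGFRB and VWF were detected at lower levels. Levels below are CPM after scaling of the libraries, and changes are log2 fold changes of 10CA over DMSO from a single fit with the replicate number as a block. A gene is called changed where its Benjamini-Hochberg adjusted p from edgeR's quasi-likelihood test was under 0.05.

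LRH-1 acts in liver on genes of bile acid, cholesterol and lipoprotein metabolism. When amino acids are short or the endoplasmic reticulum is stressed, translation of the transcription factor ATF4 goes up, and ATF4 then switches on genes for amino acid synthesis, transport and tRNA charging through composite sites in their promoters. Low oxygen acts through HIF factors on genes of glycolysis, glucose uptake and collagen hydroxylation. Sterol supply acts through SREBP factors on nearly the whole cholesterol synthesis pathway.

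Genes of the amino acid response and of the hypoxia response were among those higher with 10CA than with DMSO. EBP of the cholesterol pathway and a pair of mitochondrial mRNAs were among those lower. Against ethanol no gene of the amino acid response list was called higher. In all, 32 genes changed against DMSO, 19 higher and 13 lower, which is 0.216% of the genes tested. Changes were small. Only ARMCX7P, GPR143 and SIAE, all lower, passed 1.5-fold, and only ARMCX7P passed 2-fold. The median over all genes tested was -0.00082. In 24 of the 32 genes the 3 libraries of either group lay wholly above those of the other, as they did in 12.8% of all genes tested. The test used the same libraries, so this is a description. All 32 had the same direction in the 3 replicate pairs, which a fit blocked on those pairs favours. The calls rest on the replicate block: without it no gene was called by edgeR, the smallest adjusted p was 0.565, and 1033 genes had an unadjusted p under 0.05. DESeq2 with the block called 161 genes. The count was 68, 8 and 12 without DMSO library 1, 2 and 3, and 7, 10 and 4 without 10CA library 1, 2 and 3. Of the 32 genes, CYB5A and CP stayed called whichever of the 6 libraries was left out, and P4HA1 and ERRFI1 in 5 of the 6 fits. Another 14, among them EBP, MT-CO3, PSAT1, RHBG, LRPPRC and BCAT1, were called in 1 of the 6, and AP1M2, GNG4 and GPR143 in 0.

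**Figure D1:**
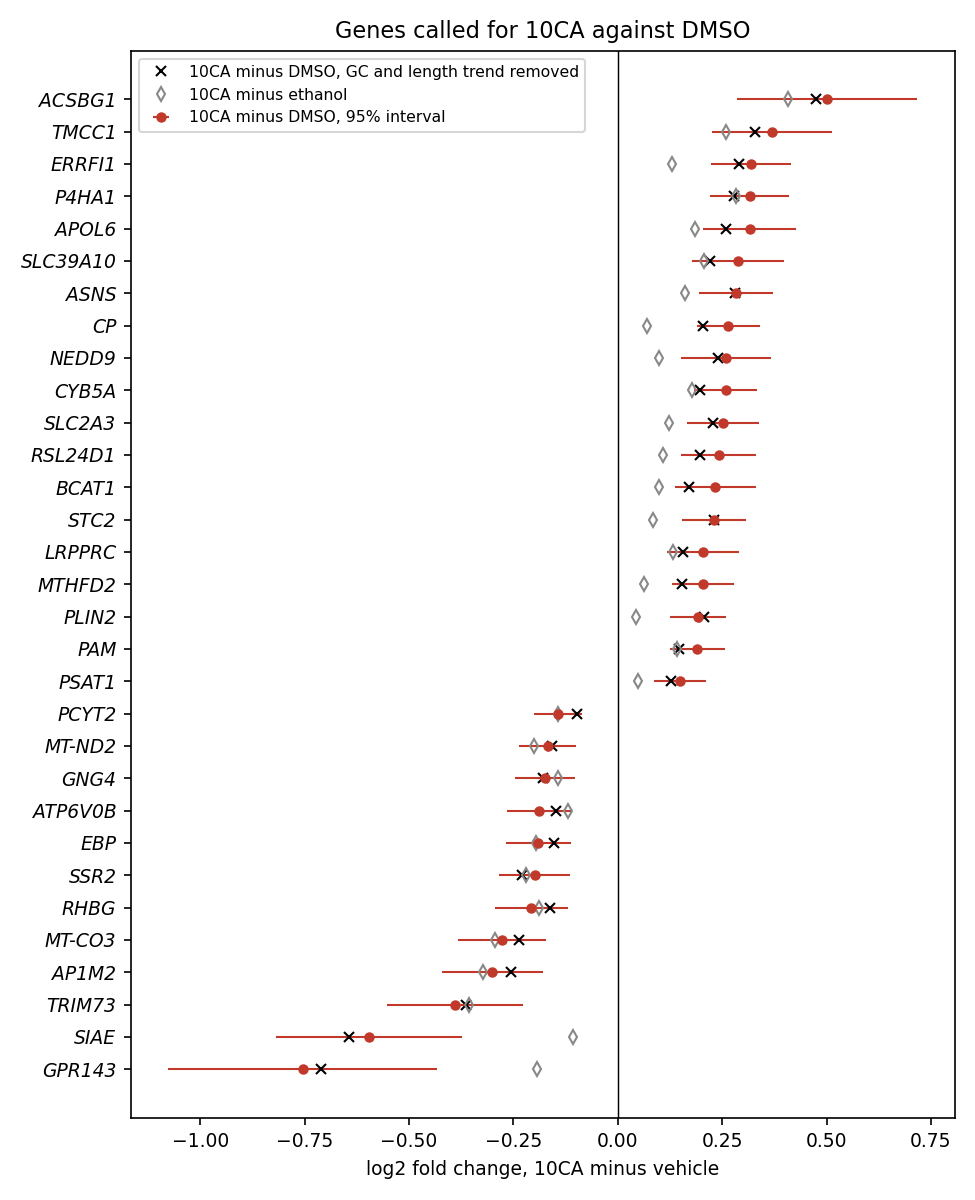
Log2 fold change (horizontal axis) of 31 genes called for 10CA against DMSO, with 95% intervals in red, the value after removal of the GC and length trend as a cross, and 10CA minus ethanol as an open diamond. ARMCX7P, at -2.73, is left out for scale. SIAE and GPR143 lie far lower against DMSO than against ethanol, while P4HA1 lies near 0.3 against either vehicle.

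The promoter of ASNS is shown first, because ASNS had the smallest p of the amino acid response list. Stretches of the promoters of 6 tRNA synthetase genes follow, because that list had the highest median of all lists. Lists and members were chosen with earlier results of these data known, so this rank is a description. Of the synthetases, only those with a match are shown. The stretches carry the letters of a composite CEBP-ATF site (TGATGNAA, read on either strand), which overlap no match of the other motifs searched here. The windows run from 250 bases before to 50 after the gene start, from RefSeq on GRCh38.p14. Capitals mark the match. The ASNS stretch lies at chr7:97872409-97872658 on the minus strand and ends at the gene start, with its match beginning at position -68.
ASNS: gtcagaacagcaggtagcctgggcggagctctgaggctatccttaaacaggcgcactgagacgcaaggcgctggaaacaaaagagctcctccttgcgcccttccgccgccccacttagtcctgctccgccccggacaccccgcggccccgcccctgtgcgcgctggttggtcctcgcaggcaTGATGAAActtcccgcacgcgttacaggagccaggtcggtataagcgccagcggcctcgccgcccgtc
AARS, chr16:70289675-70289704, minus strand: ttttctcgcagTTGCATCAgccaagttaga
CARS, chr11:3057407-3057436, minus strand: cggggcggcggTTGCATCAgattctaggaa
IARS, chr9:92293692-92293721, minus strand: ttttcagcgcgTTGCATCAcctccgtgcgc
MARS, chr12:57488053-57488082, plus strand: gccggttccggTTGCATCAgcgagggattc
NARS, chr18:57621804-57621833, minus strand: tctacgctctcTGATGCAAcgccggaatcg
TARS, chr5:33440956-33440985, plus strand: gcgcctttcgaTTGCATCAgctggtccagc

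These letters occurred in 3.67% of 27305 promoter windows of the same length. They occurred in 6 of the 14 synthetase promoters that could be matched and in 5 of 24 promoters of the amino acid response list. Of the 4 called members of that list, ASNS had a match, and PSAT1, MTHFD2 and STC2 had none in this window. A match is a description of letters and shows neither binding nor a cause.

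ASNS, which makes asparagine, stood at 102, 88.6 and 108 CPM in DMSO libraries 1 to 3 and at 126, 106 and 132 CPM with 10CA. Each 10CA library was above the DMSO library of its number, while the groups overlapped, since 10CA library 2 lay below DMSO library 3. The log2 fold change was 0.28 (95% interval 0.19 to 0.37, adjusted p = 0.00572). PSAT1, an enzyme of serine synthesis, stood at 694, 694 and 686 CPM in DMSO and at 755, 768 and 776 CPM with 10CA. The groups did not overlap, and the change was 0.15 (adjusted p = 0.0359).

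MTHFD2, a mitochondrial enzyme of one-carbon metabolism fed by serine, had a mean of 121 CPM ± 4.82 (SD, n = 3) in DMSO and 139 CPM ± 1.30 (SD, n = 3) with 10CA. Its groups did not overlap, and its change was 0.20 (adjusted p = 0.0152). STC2, a secreted glycoprotein known as an ATF4 target, had a mean of 92.1 CPM ± 10.2 (SD, n = 3) in DMSO and 108 CPM ± 14.3 (SD, n = 3) with 10CA, a change of 0.23 (adjusted p = 0.01) with overlapping groups. BCAT1, a branched-chain amino acid transaminase outside the list, rose by 0.23 (adjusted p = 0.0359) from 102 CPM ± 4.66 to 120 CPM ± 2.10 (SD, n = 3 each).

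Of the 31 measured genes of the amino acid response list, 4 rose and none fell, and 12 were higher and 1 lower at an unadjusted p under 0.05. Over all genes tested, 6.52% were higher and 6.99% lower at that threshold. The median of the list was 0.06. Set against ethanol in place of DMSO, the list's median was -0.01 with none of its genes called higher and 1 called lower. With ethanol the change of ASNS was 0.16 (adjusted p = 0.0868) and that of PSAT1 was 0.05 (adjusted p = 0.456). MTHFD2 then differed by 0.06 (adjusted p = 0.422), STC2 by 0.08 (adjusted p = 0.274) and BCAT1 by 0.10 (adjusted p = 0.311). Between the vehicles, ethanol minus DMSO, the list's median was 0.09 with no gene called, which is above the 0.06 of 10CA over DMSO. For 6N against DMSO the median was 0.06, with 4 genes called higher and 1 lower. For 6N-10CA against DMSO it was 0.02, with 2 called higher and 1 lower.

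The 18 aminoacyl-tRNA synthetases, which load amino acids onto tRNAs, had no called member. Their median was 0.11, and 16 of 18 lay above 0. At an unadjusted p under 0.05, 11 were higher and none lower. YARS was at 174, 174 and 178 CPM in DMSO and at 190, 193 and 205 CPM with 10CA, without overlap, a log2 difference of 0.16 (adjusted p = 0.0513). IARS differed by 0.16 (adjusted p = 0.0571) and EPRS by 0.15 (adjusted p = 0.117). Against ethanol the median of the list was 0.05, and YARS differed by 0.01 (adjusted p = 0.933).

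**Figure D2:**
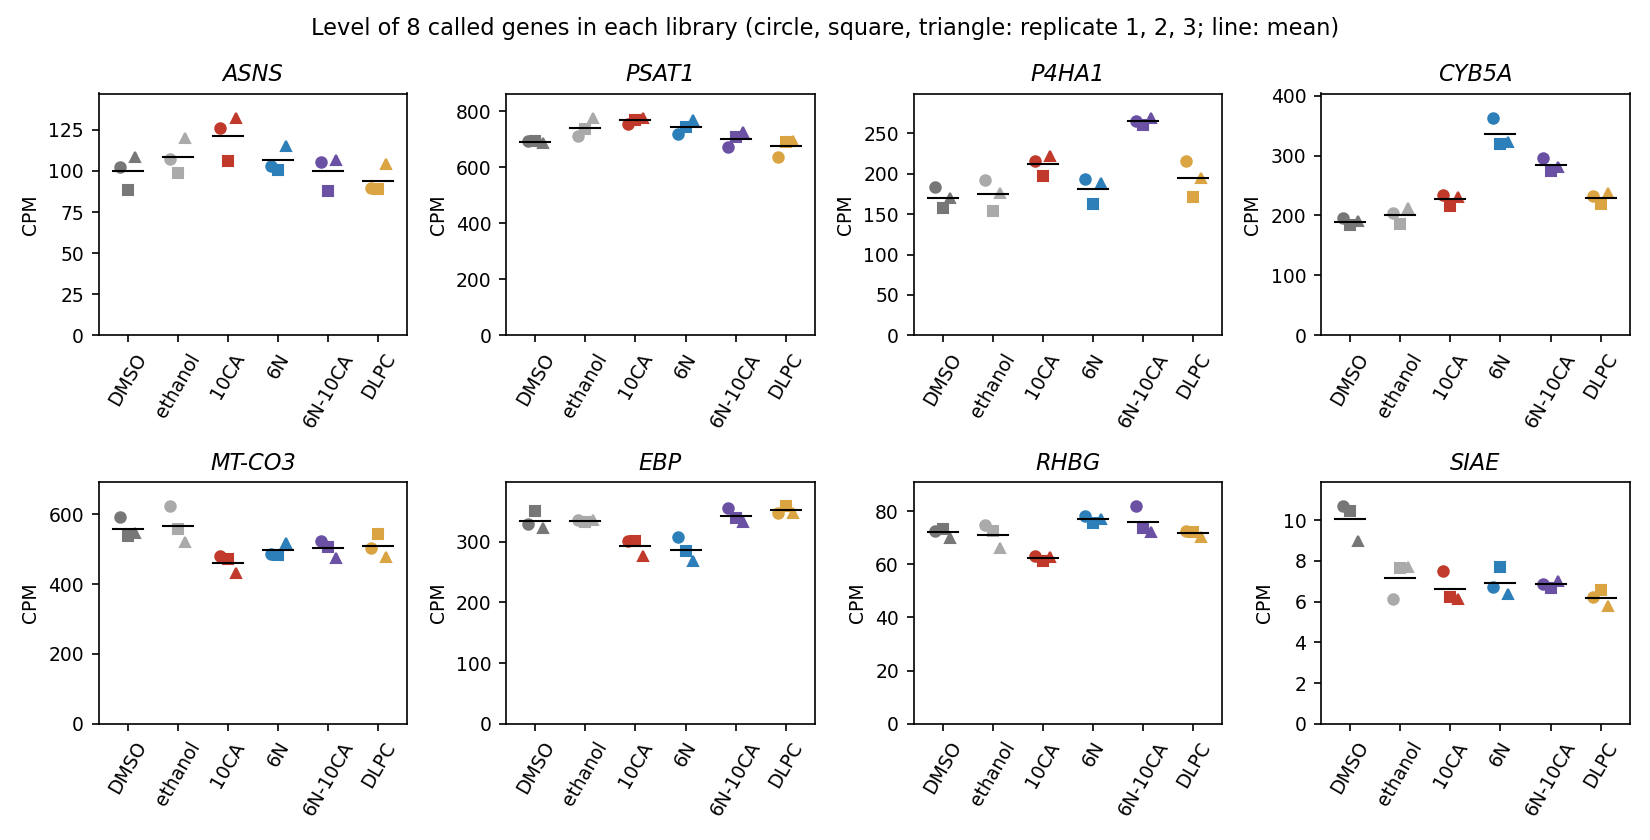
Level in CPM (vertical axis, from 0) of 8 called genes in each of the 18 libraries, by treatment (horizontal axis). Circles, squares and triangles stand for replicates 1, 2 and 3 and the line for the group mean. P4HA1 and CYB5A are higher again with 6N-10CA than with 10CA, RHBG is lowest with 10CA, and SIAE has its highest mean in DMSO.

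P4HA1, the catalytic subunit of the collagen prolyl hydroxylase, was among the 4 genes with the smallest adjusted p. It stood at 183, 158 and 170 CPM in DMSO and at 216, 197 and 221 CPM with 10CA, with no overlap. The log2 fold change was 0.32 (95% interval 0.22 to 0.41, adjusted p = 0.00338), and against ethanol it was 0.28 (adjusted p = 0.0116). SLC2A3, the glucose transporter GLUT3, rose by 0.25 (adjusted p = 0.0125) from 685 CPM ± 48.2 to 816 CPM ± 52.8 (SD, n = 3 each), also without overlap. Against ethanol it differed by 0.12 (adjusted p = 0.168). SLC2A14 is a close copy of SLC2A3, so reads may be split between them.

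Of the 22 genes of the hypoxia list, 2 rose and none fell, 13 were higher at an unadjusted p under 0.05 and none lower, and the median was 0.10. EGLN3, a HIF prolyl hydroxylase that is itself a HIF target, differed by 0.30 (adjusted p = 0.0771), and LDHA, which turns pyruvate into lactate, by 0.12 (adjusted p = 0.0781). For 6N against DMSO the list's median was -0.07, with 1 gene called higher. For 6N-10CA against DMSO it was 0.14, with 9 called higher. Neither had a gene of the list called lower. The core letters of the HIF site (ACGTG or GCGTG, either strand, combined into 1 search after their separate counts were seen) were in 15 of 18 promoters of the list and in 48.4% of all windows. P4HA1, the list's gene with the smallest p, held a single match beginning at position -86 and shown here in capitals.
P4HA1, chr10:73096936-73096965, minus strand: gtgtgatcgagctCACGTagcgagggctgc

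EBP, a sterol isomerase of late cholesterol synthesis, stood at 329, 350 and 323 CPM in DMSO and at 300.2, 301 and 276 CPM with 10CA. All 3 libraries with 10CA lay below all 3 with DMSO. The fall was -0.19 on the log2 scale (95% interval -0.27 to -0.11, adjusted p = 0.0359), and against ethanol it was -0.20 (adjusted p = 0.0209). MVD, which makes isopentenyl diphosphate, differed by -0.21 (adjusted p = 0.0635) and LSS, the lanosterol synthase, by -0.16 (adjusted p = 0.0904).

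Of the 24 cholesterol genes measured, 1 fell and none rose, 11 were lower and none higher at an unadjusted p under 0.05, and 22 lay below 0. The median of -0.08 was the second lowest of the 24 lists, after that of the mitochondrial mRNAs. These lists were chosen with earlier results of these data known, so the rank is a description. The cholesterol median was -0.09 against ethanol, where 3 genes were called lower. The sterol response letters TCACNCCAC (either strand) were in 1 of 17 promoters of the list, that of SREBF2, and in 1.15% of all windows. Fatty acid and triglyceride synthesis had no called gene among 22, and its median was -0.01. PCYT2, of the ethanolamine branch of phospholipid synthesis, fell by 0.14 on the log2 scale (adjusted p = 0.0359), from 684 CPM ± 2.75 to 620 CPM ± 4.49 (SD, n = 3 each). ATP6V0B, a subunit of the proton pump that acidifies lysosomes, fell by 0.19 (adjusted p = 0.0359).

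MT-CO3, a subunit of cytochrome c oxidase encoded in the mitochondrial genome, stood at 592, 537 and 547 CPM in DMSO and at 480, 472 and 432 CPM with 10CA. The groups did not overlap. The fall was -0.28 (95% interval -0.38 to -0.17, adjusted p = 0.0198). MT-ND2, a subunit of complex I, fell by 0.17 on the log2 scale (adjusted p = 0.0359) with overlapping groups. MT-ND1 differed by -0.23 (adjusted p = 0.0536). All 13 mitochondrially encoded mRNAs lay below 0, with a median of -0.17, and 10 were lower and none higher at an unadjusted p under 0.05. Against ethanol the median was -0.21 and 4 were called lower.

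LRPPRC, a protein that binds and stabilises mitochondrial mRNAs, rose. It stood at 278, 264 and 260 CPM in DMSO and at 293, 320 and 312 CPM with 10CA, and the log2 change was 0.20 (adjusted p = 0.0413). The nuclear-encoded respiratory chain had no called gene among 34. Of these, 9 were lower and none higher at an unadjusted p under 0.05, and the median was -0.06.

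Lower levels with 10CA went with higher GC content across genes. Over 10323 genes above 5 CPM the correlation of log2 fold change with GC content was -0.42, and with log2 transcript length it was 0.26. These are descriptions across genes of the same libraries. By replicate pair the correlation with GC was -0.07, -0.40 and -0.39, so it was near 0 in pair 1. It was 0.01 for ethanol against DMSO, -0.08 for 6N against DMSO and -0.20 for 6N-10CA against DMSO. Libraries of the same treatment also differed in this trend. Deviations from the mean of all 18 libraries correlated with GC at 0.20, -0.07 and 0.27 in DMSO libraries 1 to 3. With 10CA the values were 0.11, -0.47 and -0.25, with 6N 0.24, -0.01 and -0.18, and with 6N-10CA 0.33, -0.46 and -0.16. The cause was not tested. The genes that rose had a median GC content of 42.4% and those that fell 53.5%, against 48.4% over all these genes.

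**Figure D3:**
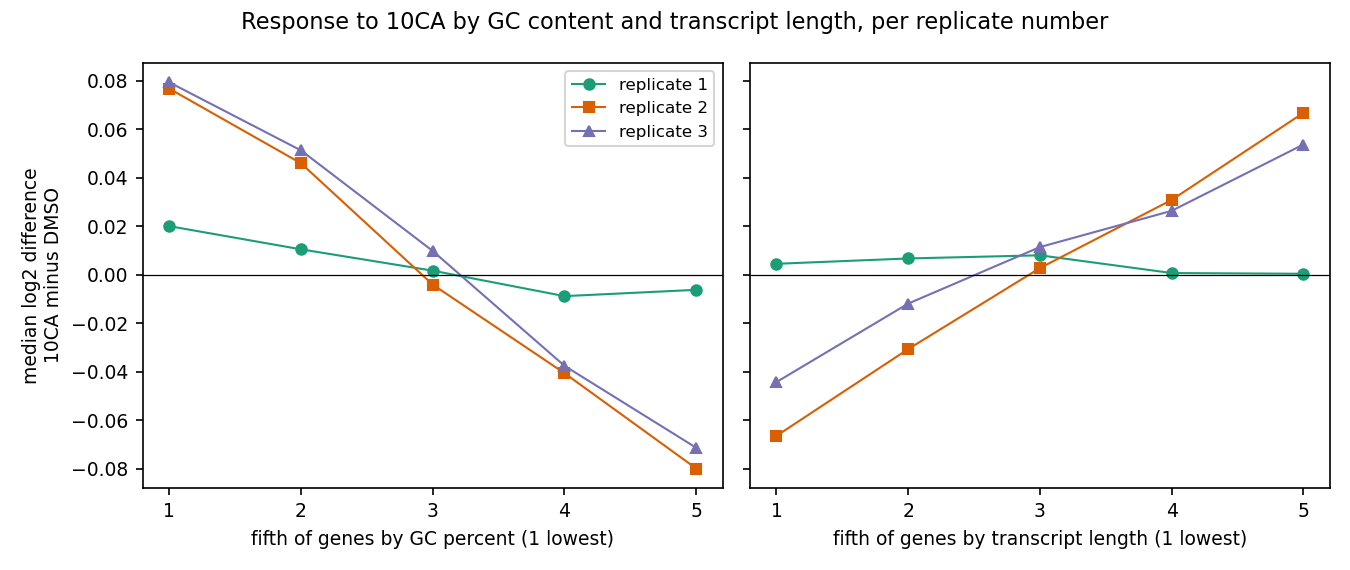
Median log2 difference between 10CA and DMSO (vertical axis) in 5 equal bins of the genes above 5 CPM by GC content (left) and by transcript length (right), for each replicate number. In the bin of lowest GC content the medians are 0.02, 0.08 and 0.08, and in the highest they are -0.01, -0.08 and -0.07 for replicates 1, 2 and 3.

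With the GC and length trend taken out of every library, an alternative chosen after seeing the data, 47 genes were called, 35 higher and 12 lower. Among the 32 genes, 25 stayed called, and AP1M2, MT-CO3, MT-ND2, MTHFD2, PCYT2, RHBG and TMCC1 were lost. MT-CO3 then differed by -0.24 (adjusted p = 0.104), and no mitochondrial mRNA was called. ASNS (0.28, adjusted p = 0.00498), P4HA1 (0.28, adjusted p = 0.00139) and EBP (-0.15, adjusted p = 0.0209) stayed called. The synthetases YARS, MARS and SARS joined the called genes, so that 3 of that list were higher. The lost genes kept their direction, with AP1M2 at -0.26 (adjusted p = 0.0617), MT-ND2 at -0.16 (adjusted p = 0.0636), MTHFD2 at 0.15 (adjusted p = 0.0591), PCYT2 at -0.10 (adjusted p = 0.109), RHBG at -0.16 (adjusted p = 0.0944) and TMCC1 at 0.33 (adjusted p = 0.0518).

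The list medians moved unevenly under this correction. They were -0.15 for the mitochondrial mRNAs, -0.08 for cholesterol synthesis, 0.08 for the amino acid response, where 6 genes were then called higher, 0.09 for the synthetases and 0.08 for the hypoxia list. The nuclear-encoded respiratory chain went to -0.02 and the cytosolic ribosomal proteins to -0.01. The medians of the lipoproteins, the LRH-1 targets and the NRF2 targets changed sign, to 0.02, 0.02 and 0.00. Between treatments, the correction gave 1215 called genes for 10CA against 6N, 518 against 6N-10CA, 118 against ethanol and 36 between the vehicles.

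CYB5A, cytochrome b5 of the endoplasmic reticulum, an electron donor for desaturases and cytochrome P450 enzymes, stood at 195, 184 and 190 CPM in DMSO and at 235, 216 and 230 CPM with 10CA. The groups lay apart. The rise was 0.26 (95% interval 0.18 to 0.33, adjusted p = 0.00338), and against ethanol it was 0.18 (adjusted p = 0.0291).

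CP, the copper-carrying plasma protein ceruloplasmin, stood at 202, 142 and 180 CPM in DMSO and at 226, 179 and 222 CPM with 10CA. Library 2 was the lowest in both groups, and each 10CA library exceeded its partner. The rise was 0.26 (adjusted p = 0.00338). Against ethanol it was 0.07 (adjusted p = 0.371), and ethanol itself was called higher than DMSO by 0.20 (adjusted p = 0.0375). Of 18 acute phase proteins measured CP was the only one called, and at an unadjusted p under 0.05 another 6 were lower and none but CP higher. HP, haptoglobin, differed by -0.17 (adjusted p = 0.0509).

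PLIN2, which coats lipid droplets, rose by 0.19 (adjusted p = 0.0125), from 661 CPM ± 52.4 to 757 CPM ± 73.1 (SD, n = 3 each). The groups overlapped, and against ethanol the difference was 0.04 (adjusted p = 0.579). It was the only called gene among 23 of fatty acid oxidation and PPAR alpha targets, whose median was 0.02. ACSBG1, an acyl-CoA synthetase, rose by 0.50 (adjusted p = 0.0431) from 5.83 CPM ± 1.16 to 8.24 CPM ± 0.0752 (SD, n = 3 each).

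ERRFI1, a feedback inhibitor of the EGF receptor, stood at 98.7, 112 and 138 CPM in DMSO and at 127, 133 and 174 CPM with 10CA, a rise of 0.32 (adjusted p = 0.00338). NEDD9, an adhesion scaffold, rose by 0.26 (adjusted p = 0.0359). In both, levels differed more between replicate numbers than between treatments, and the groups overlapped. SLC39A10, a zinc importer, rose by 0.29 (adjusted p = 0.0227), APOL6 of the apolipoprotein L family by 0.32 (adjusted p = 0.0125), PAM, which amidates peptide hormones, by 0.19 (adjusted p = 0.0125), and TMCC1, a membrane protein of the endoplasmic reticulum, by 0.37 (adjusted p = 0.0275). RSL24D1, an assembly factor of the large ribosomal subunit, rose by 0.24 (adjusted p = 0.0177) and was the only called gene among 36 of ribosome biogenesis.

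SIAE, which removes acetyl groups from sialic acids, stood at 10.7, 10.5 and 8.96 CPM in DMSO and at 7.51, 6.25 and 6.15 CPM with 10CA. All 10CA libraries lay below all DMSO libraries, and the fall was -0.60 (adjusted p = 0.0187). The mean in ethanol was 7.15 CPM ± 0.907 (SD, n = 3), and 10CA differed from ethanol by -0.11 (adjusted p = 0.701). DMSO had the highest mean of the 6 groups. DMSO was also highest for GPR143, a receptor of pigment cell organelles, at 3.45, 2.33 and 3.76 CPM in DMSO and 2.00, 1.43 and 2.20 CPM with 10CA. Its fall was -0.75 (adjusted p = 0.0417), and 10CA differed from ethanol by -0.19 (adjusted p = 0.616). Of 16 genes of sialic acid metabolism 1 was called, SIAE. NEU1, the lysosomal sialidase, differed by -0.17 (adjusted p = 0.0536).

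ARMCX7P, an X-linked pseudogene, stood at 2.43, 1.97 and 2.19 CPM in DMSO and at 0.837, 0.183 and 0.00 CPM with 10CA, where library 3 had no count. A count of 0 allows up to 3 counts, which is 0.0857 to 0.107 CPM over the depths of all 18 libraries. The fall was -2.73 (adjusted p = 0.0166). It was -4.51 without 10CA library 1, and the call was lost without DMSO library 3 (-2.49) and without 10CA library 2 (-2.35) or 3 (-2.25). RHBG, an ammonium transporter, stood at 72.7, 73.3 and 70.0 CPM in DMSO and at 63.3, 61.1 and 62.7 CPM with 10CA, a fall of -0.21 (adjusted p = 0.0413) with no overlap. AP1M2, a clathrin adaptor subunit of epithelial cells, fell by 0.30 on the log2 scale (adjusted p = 0.0352), SSR2, of the translocon at the endoplasmic reticulum, by 0.20 (adjusted p = 0.0431) and GNG4, a G protein gamma subunit, by 0.17 (adjusted p = 0.0359). TRIM73 fell by 0.39 (adjusted p = 0.0359). It has near-identical copies in its gene cluster, and its value is uncertain for that reason.

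Strandedness is not given in the sources used here, so reads of genes that overlap on opposite strands cannot be told apart. Among the genes above this touches ACSBG1 with IDH3A, CP with HPS3, GPR143 with TBL1X, MTHFD2 with SLC4A5, PCYT2 with ANAPC11, and SIAE with SPA17 and TBRG1. Annotated genes also overlap ASNS, P4HA1, BCAT1, ERRFI1, NEDD9, LRPPRC, SSR2, GNG4, ATP6V0B, SLC39A10, TMCC1 and TRIM73 on the opposite strand.

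NR5A2, the gene of LRH-1, stood at 3.97, 3.11 and 4.48 CPM in DMSO and at 3.62, 4.85 and 4.44 CPM with 10CA. The groups overlapped and the difference was 0.16 (95% interval -0.19 to 0.50, adjusted p = 0.726). No gene of 27 LRH-1 targets was called, 1 was higher and 3 lower at an unadjusted p under 0.05, and the median was -0.01. Against ethanol none was called either, 1 was higher and 7 lower at that threshold, and the median was -0.05. GNMT, which uses S-adenosylmethionine to methylate glycine, came nearest, at 14.0, 13.9 and 13.6 CPM in DMSO and 10.2, 10.5 and 11.7 CPM with 10CA. These groups did not overlap, and the difference was -0.36 (adjusted p = 0.0771). CYP7A1, which catalyses the rate-limiting step from cholesterol to bile acids, differed by -0.10 (95% interval -0.24 to 0.04, adjusted p = 0.52).

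No gene was called in the other lists. Bile acid synthesis and transport had 20 genes and a median of -0.01, lipoproteins and secretion 18 and -0.03, and hepatocyte markers 18 and -0.02. Xenobiotic metabolism had 20 and -0.04, with CYP1A1 at -0.47 (adjusted p = 0.189) and GSTA1 at -0.29 (adjusted p = 0.0668). The unfolded protein response had 23 and -0.05, with 9 genes lower and 1 higher at an unadjusted p under 0.05. The cell cycle list had 34 and 0.04, with 12 higher and none lower at that threshold, led by TOP2A at 0.15 (adjusted p = 0.0771). Medians were -0.04 for 36 cytosolic ribosomal proteins, -0.06 for 14 heat shock genes, -0.03 for 22 NRF2 targets, 0.02 for 18 p53 targets, 0.07 for 15 NF-kB targets and 0.08 for the 10 markers of other cell types that passed the filter. Against ethanol the medians of the heat shock genes, the p53 targets and the markers of other cell types changed sign, to 0.02, -0.01 and -0.08.

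**Figure D4:**
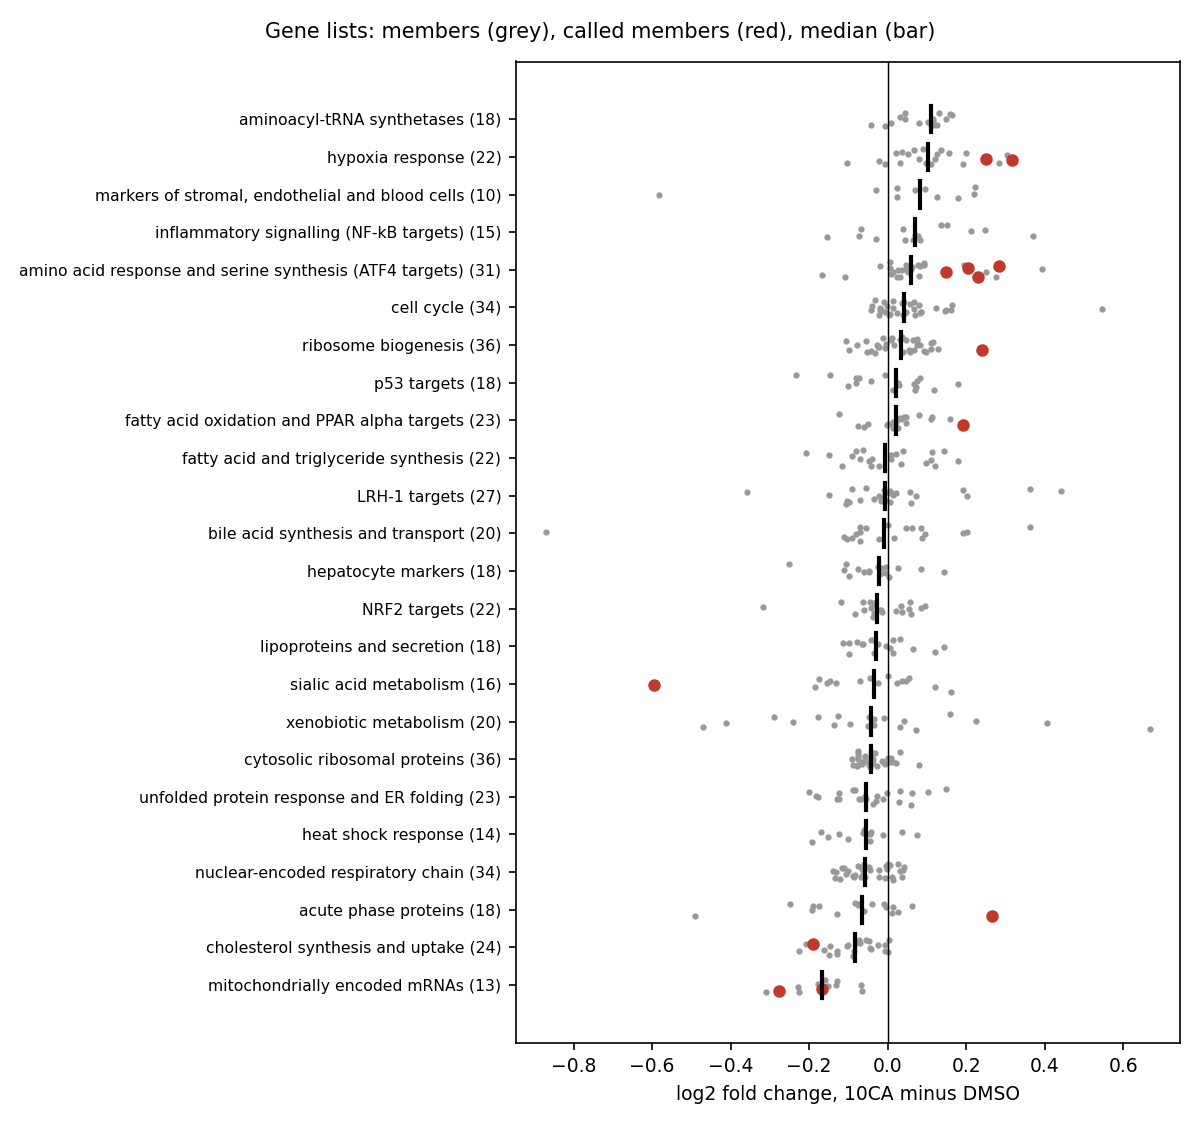
Log2 fold change of 10CA over DMSO (horizontal axis) for the tested members of 24 gene lists (rows, with the number tested). Grey dots are members, red dots called members and bars list medians. The medians run from -0.17 for mitochondrial mRNAs to 0.11 for tRNA synthetases.

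Ethanol and DMSO differed from each other in 18 genes, 0.122% of those tested. These are different vehicles, so the count can include effects of either. Set against ethanol, 10CA gave 99 called genes, 0.669%, with 32 higher and 67 lower. Of the 32 genes called against DMSO, 12 were also called against ethanol in the same direction. These comparisons share libraries, so their agreement is no independent evidence. Among the 32 genes, DMSO had the most extreme mean of the 6 groups, opposite to 10CA, in 9 of the 19 that rose and 5 of the 13 that fell.

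Compared directly at the same dose, 10CA and 6N differed in 1133 genes, 7.66%, with 612 higher and 521 lower in 10CA. The count fell to 584 without 6N library 1, and to 685 and 603 without 10CA library 2 and 3. Without the block it was 253. None of the 10 genes with the largest differences was called for 10CA against DMSO. CYP1A1, an enzyme induced by the aryl hydrocarbon receptor, stood at 36.9, 41.3 and 37.0 CPM with 6N and at 4.96, 11.4 and 5.59 CPM with 10CA, a difference of -2.43 (adjusted p = 2.84e-10), while DMSO libraries held 8.60 to 10.9 CPM. FASN, the fatty acid synthase, was higher with 10CA than with 6N by 1.04, and against DMSO its difference was -0.12. Other large differences were RP11-887P2.3 (3.60), C6orf223 (1.11) and PTAFR (1.10), higher with 10CA, and MFSD2B (-1.35), CPSF4L (-1.14), CYP24A1 (-1.13) and CELP (-1.13), lower. Of the cholesterol list 21 of 24 genes were higher with 10CA than with 6N, and the median difference was 0.35. Against DMSO, 23 genes of this list were called lower with 6N and none higher, with a median of -0.48. For 10CA against DMSO the median was -0.08, with 1 called lower.

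10CA and 6N-10CA differed in 349 genes, 2.36%, with 142 higher and 207 lower in 10CA. The count was 188, 154 and 156 without 10CA library 1, 2 and 3, and 152 and 167 without 6N-10CA library 1 and 3. Without the block it was 34. SLC51A, a bile acid transporter subunit, stood at 19.4, 15.4 and 20.5 CPM with 10CA and at 39.4, 32.0 and 32.4 CPM with 6N-10CA, a difference of -0.91 (adjusted p = 2.1e-06). The other large differences were ARMCX7P (-2.53), MFSD2B (-1.13), PDE5A (-1.12) and PLEK2 (-0.95), lower with 10CA, and PLAU (0.72), L1CAM (0.65), MBL2 (0.63), PLCH1 (0.60) and IHH (0.59), higher. Of the cholesterol list, 15 of 24 genes were lower with 10CA and none higher, with a median of -0.20. Against DMSO, 9 genes of this list were called higher with 6N-10CA and none lower, with a median of 0.11.

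The 32 genes called against DMSO divided when the small molecules were compared. The same 10CA libraries had selected these genes, which favours the direction seen against DMSO. Comparisons of these genes between the molecules are therefore descriptions and no independent evidence. Against 6N, 15 were higher and 5 lower with 10CA, and 12 were not called. Against 6N-10CA, 4 were higher and 9 lower, and 19 were not called. CYB5A was higher with both other molecules: 10CA differed from 6N by -0.56 (adjusted p = 1.55e-09) and from 6N-10CA by -0.32 (adjusted p = 2.22e-05). P4HA1 was higher with 10CA than with 6N by 0.22 (adjusted p = 0.00311) and lower than with 6N-10CA by -0.33 (adjusted p = 0.000162). PLIN2 showed the same order, at 0.18 (adjusted p = 0.0012) and -0.20 (adjusted p = 0.000859).

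ASNS was higher with 10CA than with either, by 0.19 over 6N (adjusted p = 0.00853) and 0.28 over 6N-10CA (adjusted p = 0.00068), and so were MTHFD2 and BCAT1. RHBG was lower with 10CA than with either, by -0.30 (adjusted p = 6.93e-05) and -0.28 (adjusted p = 0.000488), and TRIM73 likewise by -0.65 and -0.67. EBP did not differ detectably from 6N (0.03, 95% interval -0.05 to 0.11) and was lower than with 6N-10CA by -0.23 (adjusted p = 0.00148). SIAE differed from neither by the test, with intervals of -0.29 to 0.17 against 6N and -0.28 to 0.18 against 6N-10CA.

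**Figure D5:**
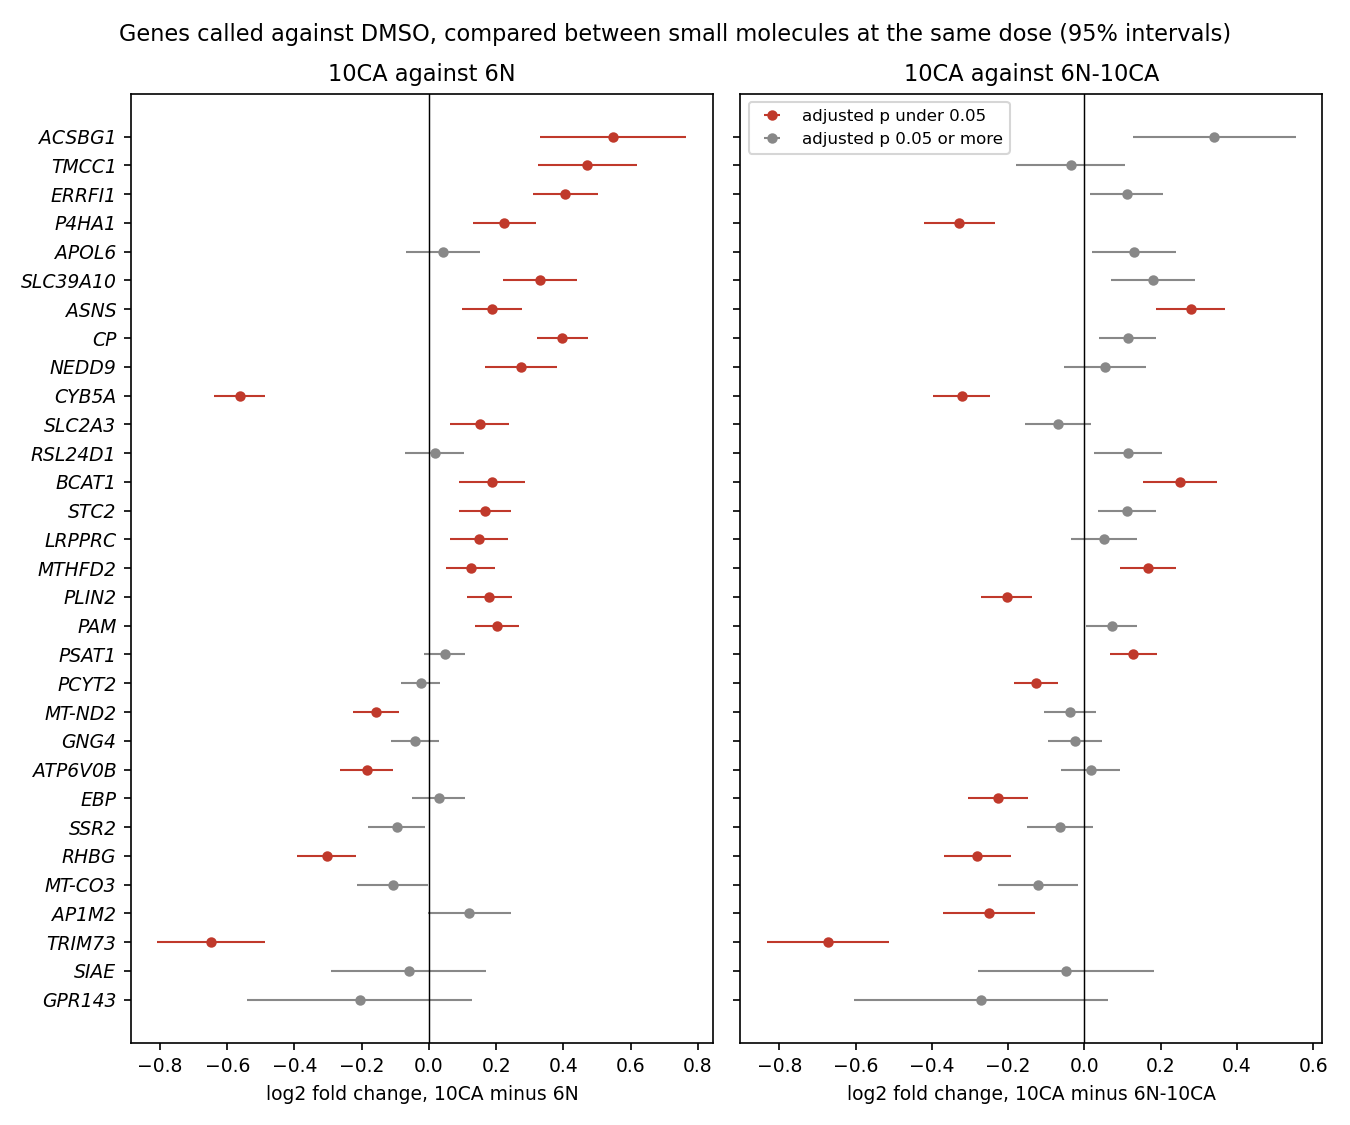
Log2 difference of 10CA from 6N (left) and from 6N-10CA (right), with 95% intervals, for 31 genes called against DMSO (rows). Red marks an adjusted p under 0.05. ARMCX7P is left out for scale. P4HA1 and PLIN2 lie above 0 against 6N and below 0 against 6N-10CA, and CYB5A, RHBG and TRIM73 lie below 0 against both.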

How the data were processed

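Unnormalized counts of reads per symbol, as the authors deposited them, filled a table of 35238 rows and 18 libraries. GRCh38 and DESeq2 are named in the submitters' processing notes. For aligner, counter and annotation nothing is given in the sources used here. Spreadsheet software had turned 28 symbols into dates, and these are not named. filterByExpr (minimum count 10, total 15) kept 14797 genes. All 18 libraries entered one edgeR 4.0.16 quasi-likelihood fit (R 4.3.3) with TMM scaling, group means and the replicate number as a block, with Benjamini-Hochberg adjustment and a two-sided threshold of 0.05. The biological coefficient of variation was 4.42%. Replicates differed by more than sampling noise (chi-square 4.7 to 14.7 per gene). The numbers come from the titles. They were used as a block over all groups by the rule that set this comparison, not because of a test. 10CA and DMSO libraries of the same number deviated together from their group means (correlation 0.38, 0.43 and 0.39). Correlations with other numbers were at most -0.10. Deviations from a mean of 3 libraries cancel out, which pushes those values negative, so they are no separate contrast. Floors cover counting error only, because amplified reads without identifiers need not be separate molecules. The fit was run on counts simulated from its own means and spread, which cannot show that its model suits these data. Positions come from GENCODE 29 on GRCh38. Named genes are all called genes, NR5A2, the called and 3 smallest-p members of each of 24 lists, and the 5 largest differences each way between molecules; overlapping genes, SLC2A14, LDHA, CYP7A1 and genes called after GC correction were chosen after their values were seen. A few genes that this rule selects are left out of the text. Members and lists were chosen with earlier results of these data known. Alternatives were RLE scaling, other filters, no block, other tests (DESeq2 1.42.0, limma 3.58.1), the other vehicle, 2 groups alone, each library left out, and GC and length correction.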

Additional observations from a re-analysis of the deposited data

How the results depend on the processing

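The 32 genes called for 10CA against DMSO kept their direction in all 505 values that the alternatives gave, including those with ethanol as the vehicle. The alternatives share libraries with the fit that selected these genes, so a kept direction was favoured in advance. With 1 library left out, 4 to 25 of the 32 stayed called. Some genes had no value in some alternatives. DESeq2 gave an adjusted p for 27 of the 32, and 30 passed the filter at a mean of 5 CPM. With the replicate block removed, counts of called genes were 0 for 10CA against DMSO, 0 against ethanol, 253 against 6N, 34 against 6N-10CA and 0 for ethanol against DMSO. Without the filter on low counts they were 382 against DMSO, 515 against ethanol, 759 against 6N-10CA and 170 between the vehicles. With a mean of at least 5 CPM they were 67 against DMSO, 191 against ethanol and 35 between the vehicles. With the 2 groups alone they were 158 against DMSO, 869 against 6N-10CA and 1 between the vehicles. Averaging both vehicles gave 127. DESeq2 gave 161 against DMSO, 305 against ethanol and 35 between the vehicles, limma-voom gave 30 between the vehicles, and GC and length correction gave 36 there. Leaving out 1 library gave 4 to 68 against DMSO, 584 to 1370 against 6N, 152 to 262 against 6N-10CA, 1 to 93 against ethanol and 0 to 34 between the vehicles. The causes were not tested. With ethanol as the vehicle the sign changed for these uncalled genes: GPAM (-0.00021), HSPA1A (0.0286), PDGFRB (-0.0292) and CDH5 (-0.0657). At this depth and number of libraries the 95% interval of a gene above 5 CPM reached a median of 0.119 on the log2 scale to either side.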
